A study of Mus musculus with 7 samples.

Results

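Haemoglobin carries oxygen as a tetramer built from pairs of alpha-type and pairs of beta-type globin chains around haem. In the mouse the beta-type genes sit together in 1 cluster and the alpha-type genes in another, and red cells change which genes of each cluster they use during development. Primitive red cells of the early yolk sac use the embryonic genes Hbb-y and Hbb-bh1 (beta-type) and Hba-x (alpha-type, zeta globin), and definitive red cells of the fetal liver, spleen and bone marrow use the adult genes Hbb-bs and Hbb-bt (beta-type) and Hba-a1 and Hba-a2 (alpha-type). The results below give these 7 genes, the 4 adult and 3 embryonic globins, of 32285 genes in the matrix of a mouse ganglion library. They were chosen by name and not by their values.

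The library holds droplet-captured cells of the trigeminal ganglion, whose sensory neurons innervate the face, from wild-type mice at postnatal day 3.5. The number of animals pooled is not stated in the labels, and the study concerns nerve and tooth root rather than blood. Its 6 bulk libraries of molars at postnatal day 7.5, 3 from Fgfr2fl/fl controls and 3 from Gli1-CreER;Fgfr2fl/fl mice, all given tamoxifen, were not analysed here. A single library has no replicate, so the comparisons below carry no p-value. The 95% intervals are exact and cover counting error only.

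The library held 149040354 unique molecular identifiers (UMIs, each standing for 1 captured RNA molecule) over 13065 barcodes (each the tag of a droplet, usually 1 cell), with a median of 8152 UMIs per barcode and no barcode under 500. A barcode was called haemoglobin-high when the 4 adult globins made up at least 2000 of every 10000 UMIs. This rule gave 786 barcodes with 500 or more genes detected (6.02% of all, 5.61 to 6.44, Clopper-Pearson), 1437 with fewer than 500 (11.0%, 10.5 to 11.5) and 10842 other barcodes. Those with 500 or more genes had a median of 10056 UMIs, 854.5 genes and 7146 adult globin UMIs per 10000. Those with fewer had a median of 6312 UMIs, 361 genes and 8995 adult globin UMIs per 10000, so nearly all of their RNA was globin. The other barcodes had a median of 8538 UMIs and 3263 genes. The barcodes closest to the globin limit had 1998 and 2004 adult globin UMIs per 10000, and both had 500 or more genes. That limit thus fell in no gap among barcodes with 500 or more genes. With fewer genes the lowest haemoglobin-high value was 3379, and limits of 1000 and 5000 gave 1443 and 1436 barcodes, so few lay near it. At the limit of 500 genes, 33 haemoglobin-high barcodes lay within 10 genes below and 35 within 10 above, so it fell in no gap.

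Clustering left out the globin genes and used barcodes from 500 genes and 1000 UMIs upward whose mitochondrial share did not exceed 20%. Of the 786 haemoglobin-high barcodes with 500 or more genes, 596 fell into 3 clusters called erythroid-like from red cell markers such as Alas2, Slc4a1, Klf1 and Gata1. Another 190 did not. They had medians of 3028.5 genes and 179 UMIs of other cell types' markers per 10000 non-globin UMIs, against 735 genes and 60.7 in the 596, and 107 of them lay in unnamed clusters. Doublets were not called or removed. The haemoglobin-high label was checked with 9 of 10 listed red cell markers, as Ahsp had no entry in the matrix. Their sum stood at 79.4 per 10000 non-globin UMIs in haemoglobin-high barcodes with 500 or more genes. It was 193 in those with fewer and 0.679 in the other barcodes. Alas2 alone stood at 32.1, 173 and 0.132 in these classes. Each of the other markers was lower with fewer than 500 genes than with 500 or more. Each was also above its level in the other barcodes, for Klf1 only slightly (0.0678 against 0.0629). None of the 9 was at 0 in any class, the other barcodes included.

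The beta-type members lie on chromosome 7 (minus strand, mm10, GENCODE): Hbb-bt at 103812524 to 103813996, Hbb-bh1 at 103841637 to 103843164, Hbb-bs at 103826534 to 103828096 and Hbb-y at 103851749 to 103853216. The alpha-type members lie on chromosome 11 (plus strand): Hba-x at 32276400 to 32278116, Hba-a1 at 32283511 to 32284465 and Hba-a2 at 32296489 to 32297298. No other annotated gene overlaps them. The 250 bases before the RefSeq start site (build GRCm38.p6), where the sequences that recruit the red cell transcription machinery lie, are shown to set the adult promoters beside the embryonic ones. RefSeq held a promoter entry for 6 of the 7 members. Capitals mark, on either strand, each CACCC box (the kind of site KLF1 binds), each CCAAT box, each GATAA site (the kind GATA1 binds) and each TATAA box.
Hbb-bs, chr7:103827929-103828178, minus strand: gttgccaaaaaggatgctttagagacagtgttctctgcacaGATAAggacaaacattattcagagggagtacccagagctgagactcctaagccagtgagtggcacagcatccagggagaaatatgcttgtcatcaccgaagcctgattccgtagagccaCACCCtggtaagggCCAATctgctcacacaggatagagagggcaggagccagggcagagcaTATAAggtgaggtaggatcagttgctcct
Hbb-bt, chr7:103813924-103814173, minus strand: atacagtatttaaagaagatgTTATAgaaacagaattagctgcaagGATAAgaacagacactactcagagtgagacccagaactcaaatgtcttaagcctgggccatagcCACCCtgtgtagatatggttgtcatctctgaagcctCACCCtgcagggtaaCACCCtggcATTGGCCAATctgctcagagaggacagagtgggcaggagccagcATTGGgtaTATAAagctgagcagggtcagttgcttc
Hbb-y, chr7:103853208-103853457, minus strand: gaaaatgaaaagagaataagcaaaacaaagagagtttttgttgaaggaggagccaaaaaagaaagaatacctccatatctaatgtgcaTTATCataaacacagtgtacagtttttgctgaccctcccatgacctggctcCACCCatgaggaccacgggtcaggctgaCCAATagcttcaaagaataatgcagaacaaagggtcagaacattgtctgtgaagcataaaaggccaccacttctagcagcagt
Hba-a1, chr11:32283422-32283671, plus strand: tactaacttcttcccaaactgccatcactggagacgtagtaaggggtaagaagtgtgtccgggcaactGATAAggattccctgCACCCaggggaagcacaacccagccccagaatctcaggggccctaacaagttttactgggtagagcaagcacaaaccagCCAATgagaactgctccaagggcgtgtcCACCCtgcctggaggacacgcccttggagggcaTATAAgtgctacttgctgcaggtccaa
Hba-x, chr11:32276350-32276599, plus strand: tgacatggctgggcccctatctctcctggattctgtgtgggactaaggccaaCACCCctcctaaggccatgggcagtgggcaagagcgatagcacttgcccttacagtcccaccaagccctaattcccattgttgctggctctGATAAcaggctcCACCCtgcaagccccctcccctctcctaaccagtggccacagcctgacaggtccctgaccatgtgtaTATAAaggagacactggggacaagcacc
The Hba-a2 window (chr11:32296242-32296491) was 97.6% identical to that of Hba-a1 in a global alignment and is not printed. The windows of Hbb-bs and Hbb-bt were 70.9% identical. The Hbb-y window was 53.0% identical to that of Hbb-bs, and the Hba-x window 52.8% identical to that of Hba-a1. All 4 adult windows held each of the 4 motifs, against 1.01% of the 27025 promoter windows of that length in the table. The motifs include the kinds of site that red cell factors bind, and the adult windows are alike in pairs. This contrast is therefore a description and not a test of enrichment. Hbb-bt held 3 CACCC matches and Hbb-bs 1. The Hbb-y window held no TATAA and the Hba-x window no CCAAT. Taken singly the motifs are common: CACCC was in 51.3% of all windows, CCAAT in 34.5%, TATAA in 23.5% and GATAA in 23.0%. A match is a run of letters and not a binding site. GENCODE starts these genes 3 to 200 bases farther upstream than RefSeq.

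The adult genes made up nearly all of the globin RNA. The 7 members had 13822926 UMIs, 9.27% of the library, and 13822857 of these came from the adult genes. Hbb-bs (beta-s globin) had 8832523 UMIs and Hba-a1 2262814, ranking 1 and 2 among all genes. Hbb-bt (beta-t globin) had 1618656 and ranked 3, and Hba-a2 had 1108864 and ranked 5. The 3 embryonic genes had 69 UMIs together, or 4.99 per 1000000 globin UMIs. Of these Hbb-y had 54 in 37 barcodes, Hba-x 11 in 10 barcodes and Hbb-bh1 4 in 2 barcodes. UMI counts are not divided by transcript length; the 7 reference transcripts are 554 to 801 bases long.

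In haemoglobin-high barcodes with 500 or more genes, Hbb-bs made up 3755 of every 10000 UMIs, Hba-a1 956, Hbb-bt 783 and Hba-a2 458. In those with fewer genes the order was the same: Hbb-bs had 5765, Hba-a1 1491, Hbb-bt 971 and Hba-a2 744. Over single barcodes with 500 or more genes, Hbb-bs ran from 1102 to 6317 UMIs per 10000 with a median of 4569. In those with fewer it ran from 1790 to 7617 with a median of 5751, so the ranges overlapped. Every haemoglobin-high barcode held UMIs of all 4 adult genes. Adult globin levels in these barcodes follow from how they were chosen and are given as a description.

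**Figure D1:**
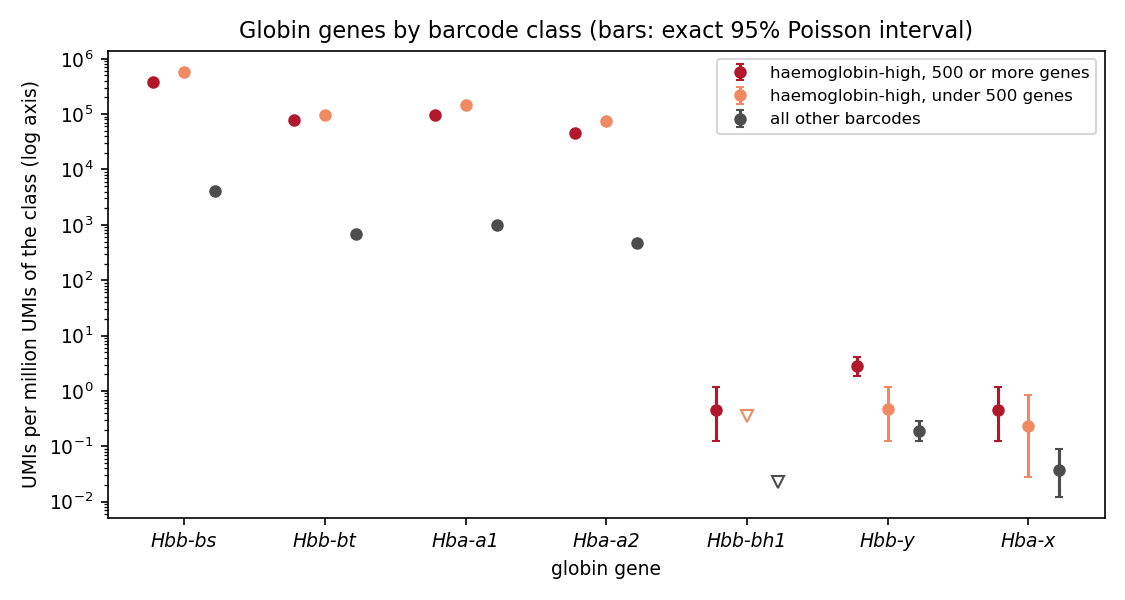
UMIs per 1000000 UMIs of the class (log axis) for each globin gene in haemoglobin-high barcodes with 500 or more genes (red), with fewer than 500 (orange) and in all other barcodes (grey); bars are exact 95% Poisson intervals, smaller than the points for adult genes, and open triangles mark the level of 3 UMIs where none was counted. The 4 adult genes stand orders of magnitude above Hbb-bh1, Hbb-y and Hba-x in all 3 classes.

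Hbb-y, the embryonic epsilon-type beta globin, was the main embryonic transcript left. Haemoglobin-high barcodes with 500 or more genes held 25 Hbb-y UMIs among 4023246 beta-type UMIs, or 6.21 per 1000000 (4.02 to 9.17). Those with fewer than 500 genes held 4 among 5795728, or 0.690 per 1000000 (0.188 to 1.77). The ratio between them was 9.0 (3.11 to 35.6), and 6.13 (2.00 to 25.1) without barcodes that held 3 or more Hbb-y UMIs. Where the split between the classes was set at 1000 genes, embryonic beta-type globins stood at 13.2 per 1000000 beta-type UMIs above it, and with the split at 300 genes at 3.47, against 7.21 at 500 genes. Leaving out the barcodes with 20 or more other-cell marker UMIs per 10000 non-globin UMIs left only 117 of the 786, in which they stood at 28.3 per 1000000. That filter also sorted by genes detected. It removed 302 of 311 barcodes with 500 to under 700 genes and 33 of 73 with 2000 to under 3000. Before it, these ranges held 1.82 and 12.8 embryonic UMIs per 1000000 globin UMIs. The part of other cells' RNA in the value of 28.3 was not tested. In the 596 barcodes of erythroid-like clusters embryonic beta-type globins stood at 7.59.

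Among haemoglobin-high barcodes, embryonic UMIs lay mostly in those with 1216 or more genes. Of the 33 embryonic UMIs in haemoglobin-high barcodes with 500 or more genes, bins 1 to 6 of 10 bins by genes detected (500 to 1207 genes) held 1 each. Bins 7 to 10, from 1216 genes upward, held 10, 6, 6 and 5, of which Hbb-y made up 7, 6, 2 and 5. The share of all globin UMIs that was embryonic ran from 1.73 to 2.12 per 1000000 in the lower 6 bins and was 19.1, 11.0, 12.5 and 9.13 in bins 7 to 10. Without the 3 barcodes that held 3 or more embryonic UMIs, these were 9.66, 11.0, 6.38 and 3.70. A single barcode held 5 of the 10 UMIs of bin 7. Adult globins stood at 8737 UMIs per 10000 in the first bin and 3017 in the last. The upper bins thus held more embryonic RNA per globin UMI and less adult globin per UMI. The embryonic counts of single bins are small, and the part of other cells' RNA and of doublets in the upper bins was not tested.

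Most barcodes with embryonic UMIs had 1. Hbb-y was seen in 16 of the 786 barcodes (2.04%, 1.17 to 3.28), and 11 of these had 1 UMI, 3 had 2 and 2 had 3 or more. The highest count, 5, was in an erythroid-like barcode with 1476 genes and 4365 adult globin UMIs. A barcode with 3 Hbb-y UMIs and 6003 genes lay in a macrophage-like cluster. With fewer than 500 genes Hbb-y was seen in 4 of 1437 barcodes (0.278%, 0.0759 to 0.711), each with 1 UMI. Among the other barcodes it was seen in 17 of 10842 (0.157%, 0.0914 to 0.251). When each barcode was thinned to 1000 UMIs, the expected shares were 0.236% of 786, 0.0374% of 1429 and 0.0326% of 8941 barcodes, with 8 and 1901 shallower barcodes left out of the latter classes. At that depth they correspond to fewer than 3 barcodes in each class, and no order was read from them.

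Hba-x, the embryonic zeta globin, gave 4 UMIs in haemoglobin-high barcodes with 500 or more genes (3.19 per 1000000 alpha-type UMIs, 0.869 to 8.16) and 2 in those with fewer (1.04, 0.126 to 3.76). The ratio was 3.07 (0.439 to 33.9), so no difference was detectable at this depth. Hbb-bh1, the other early beta-type gene, was seen only in haemoglobin-high barcodes with 500 or more genes, where 1 barcode held 3 UMIs and another 1. Both lay in an erythroid-like cluster, with 3614 and 2900 genes. It was at 0 of 5795728 beta-type UMIs in the class with fewer genes, and at 0 of 632263 in the other barcodes. A floor of 3 counts corresponds to 0.518 and 4.74 per 1000000, and the exact 95% upper limits are 0.636 and 5.83. No haemoglobin-high barcode held UMIs of more than 1 embryonic gene.

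The other barcodes held 25 Hbb-y UMIs, or 0.00190 per 10000 UMIs (0.00123 to 0.00280). Haemoglobin-high barcodes with 500 or more genes held more, at 0.0282 (0.0182 to 0.0416). Those with fewer stood at 0.00465 (0.00127 to 0.0119), from 4 UMIs. That interval overlaps the one of the other barcodes, so no order was read between them. Per beta-type UMI the other barcodes held the most, at 39.5 per 1000000 (25.6 to 58.4). The haemoglobin-high classes kept their order there, at 6.21 with 500 or more genes and 0.690 with fewer. The other barcodes were chosen for low adult globin, which is the denominator of that share. Its height thus follows in part from the choice and is given as a description. Outside the erythroid-like clusters the level was 39.4 per 1000000 (24.1 to 60.9). Hba-x stood at 25.8 per 1000000 alpha-type UMIs (8.38 to 60.2), from 5 UMIs. A barcode with 1126 UMIs and 753 genes in an unnamed cluster held 5 Hbb-y and 2 Hba-x UMIs, no adult beta UMI and 3 adult alpha UMIs. It and a barcode of 525 UMIs with 1 UMI of each were the only barcodes with both genes. Every other barcode of this class with Hbb-y held at least 14 adult beta UMIs.

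The adult beta pair was split unevenly and the Hbb-bt share was lowest in shallow barcodes. Hbb-bt made up 17.2% (17.2 to 17.3) of adult beta UMIs in haemoglobin-high barcodes with 500 or more genes, 14.4% (14.4 to 14.4) in those with fewer and 14.2% (14.1 to 14.3) in the other barcodes. Over single barcodes the share had quartiles of 13.6% and 19.5% in the first class and of 8.47% and 16.7% in the second, so the classes overlapped widely. It stood at 10.4% in the 40 barcodes under 250 genes and at 9.41% in those with 250 to under 300. From there it was 11.8% up to 350, 14.3% up to 400, 16.9% up to 500 and 18.0% up to 700. Above 700 genes it stayed between 15.6% and 18.0%, while the median of non-globin UMIs went from 1572 to 20268. Within the class under 500 genes it was also higher in deeper barcodes, at 6.74% under 2000 UMIs and 18.6% from 10000 to 15000. With 500 or more genes it was 10.6% under 2000 UMIs, 12.8% from 2000 to 4000 (median 685.5 genes) and 11.1% from 4000 to 6000. It was 17.6% from 8000 to 10000 (median 672 genes) and 17.1% above 15000 (median 3811 genes). The share thus differed with depth at a like number of genes, though not at every step. Among barcodes with 500 or more genes it was 17.9% in erythroid-like clusters and 14.2% in the 190 outside them.

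**Figure D2:**
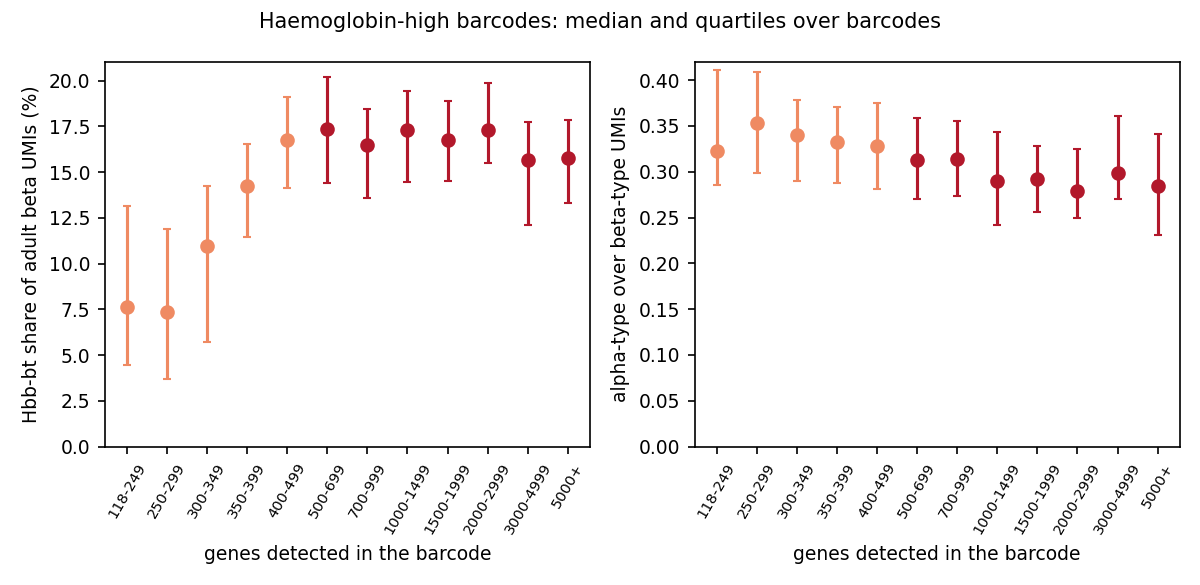
Hbb-bt share of adult beta UMIs (left) and ratio of alpha-type to beta-type UMIs (right) in haemoglobin-high barcodes by the number of genes detected; points are medians over barcodes, bars the quartiles, orange under 500 genes and red from 500. The median Hbb-bt share is 7.34% from 250 to under 300 genes and 17.4% from 500 to under 700, while the median alpha to beta ratio is 0.353 and 0.313.

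Alpha-type UMIs were fewer than beta-type UMIs in every class. The ratio of alpha-type to beta-type UMIs was 0.312 (0.311 to 0.312) in haemoglobin-high barcodes with 500 or more genes and 0.332 (0.331 to 0.332) in those with fewer, so beta-type UMIs were 3.21 and 3.01 times as many. In the other barcodes the ratio was 0.307 (0.305 to 0.308). By genes detected, it was 0.330 under 250 genes, 0.347 from 250 to under 300 and 0.320 from 500 to under 700. It was 0.294 from 2000 to under 3000 and 0.316 from 3000 to under 5000. The spread over barcodes was much wider than the difference between classes. The median was 0.305 with quartiles of 0.260 and 0.351 in the first class, and 0.337 with quartiles of 0.288 and 0.380 in the second. The variance over barcodes was 49.8 and 42.2 times what counting error gives. The level of an RNA in UMIs is not that of its protein, and the copies share sequence, so the ratio is not a chain balance.

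The adult alpha pair showed 2 separate groups of barcodes. Summed over barcodes, Hba-a2 made up 32.4% (32.3 to 32.5) of adult alpha UMIs in haemoglobin-high barcodes with 500 or more genes and 33.3% (33.2 to 33.3) in those with fewer. Few barcodes were near these values. Of the 777 barcodes with 500 or more genes and at least 100 adult alpha UMIs, 358 had a share of 20 to 28% and 316 a share of 36 to 46%, and 26 lay between 30 and 34%. Of the 1430 with fewer genes, 526 and 721 lay in those ranges, and 8 between 30 and 34%. Among the 204 other barcodes with that many alpha UMIs the gap was less clear, with 68 and 76 in those ranges and 23 between 30 and 34%. A limit of 32%, chosen after the values were seen, put 401 and 376 barcodes on either side in the first class and 645 and 785 in the second.

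**Figure D3:**
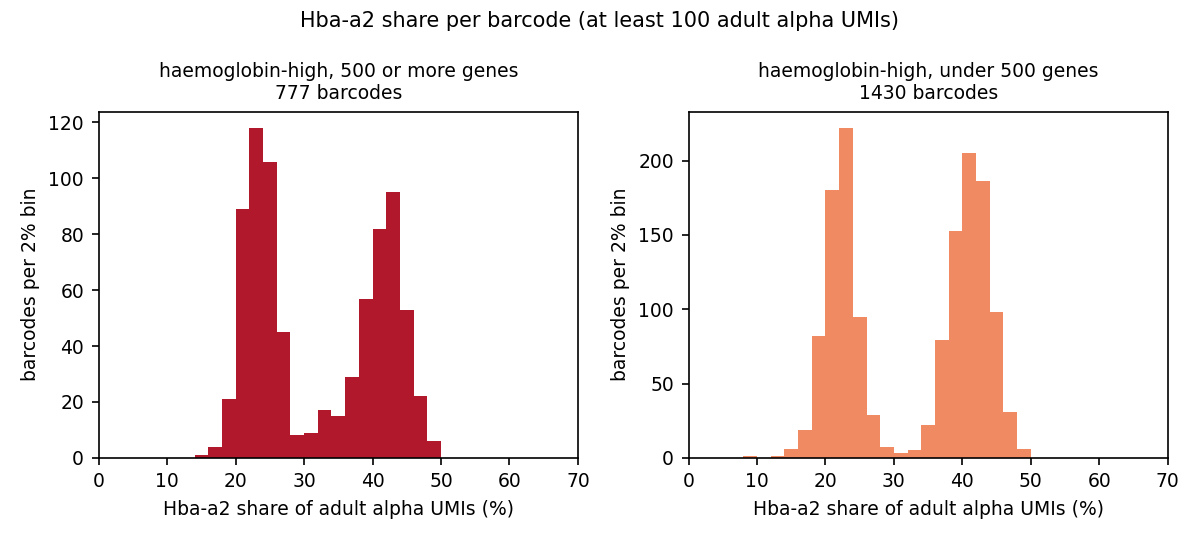
Number of barcodes per 2% bin of the Hba-a2 share of adult alpha UMIs, for haemoglobin-high barcodes with at least 100 adult alpha UMIs, with 500 or more genes (left) and fewer (right). Both classes have 1 peak near 23% and another near 42%, with few barcodes between 28% and 36%.

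Below the limit the median share was 23.5% and 22.2% in the classes with more and fewer genes, and above it 41.7% and 41.3%. Both alpha genes differed between the groups, in opposite directions. With 500 or more genes, the median Hba-a1 count was 0.227 per beta-type UMI below the limit and 0.185 above it, and the median Hba-a2 count 0.0693 and 0.130. Their sum differed less, at medians of 0.299 and 0.314 alpha UMIs per beta-type UMI. The groups had similar medians for the Hbb-bt share (17.0% and 16.6%), genes (904 and 808) and UMIs (10077 and 10109). Barcodes with UMIs of Y-linked genes and none of Xist, the RNA of the inactive X chromosome, numbered 125 below and 109 above the limit, and those with Xist and no Y-linked UMI 23 and 17. Both kinds thus occurred on both sides. These groups were cut from the share they are described by, so the shares and alpha values are a description.

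The alpha and beta copies are alike enough for reads to be shared between them. Of the 90-base windows of the reference Hba-a2 transcript, 77.2% occur unchanged in Hba-a1, and of those of Hbb-bs 63.3% occur in Hbb-bt. Within the last 300 bases, 49.8% of the Hba-a2 windows occur in Hba-a1 and 24.6% of the Hbb-bs windows in Hbb-bt. No 90-base window of an embryonic transcript occurs in an adult one. The counts of the adult pairs are therefore uncertain, and the part of shared sequence in the 2 Hba-a2 groups and in the Hbb-bt trend was not tested.

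Outside the haemoglobin-high barcodes, globin RNA was present in nearly every barcode at a nearly fixed amount. Only 6 of the 10842 other barcodes had no adult globin UMI, and the median was 22, with quartiles of 18 and 30. The median was 20 in barcodes with 500 to 750 UMIs, 21 in those with 10000 to 20000 and 24 in those with 20000 to 50000, while the medians per 10000 UMIs were 337, 15.5 and 9.61. Barcodes above 50000 UMIs had a median of 37. The count per barcode thus stayed between medians of 20 and 37 in all 9 depth ranges, and a shallow barcode had more adult globin per 10000 UMIs than a deep one.

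**Figure D4:**
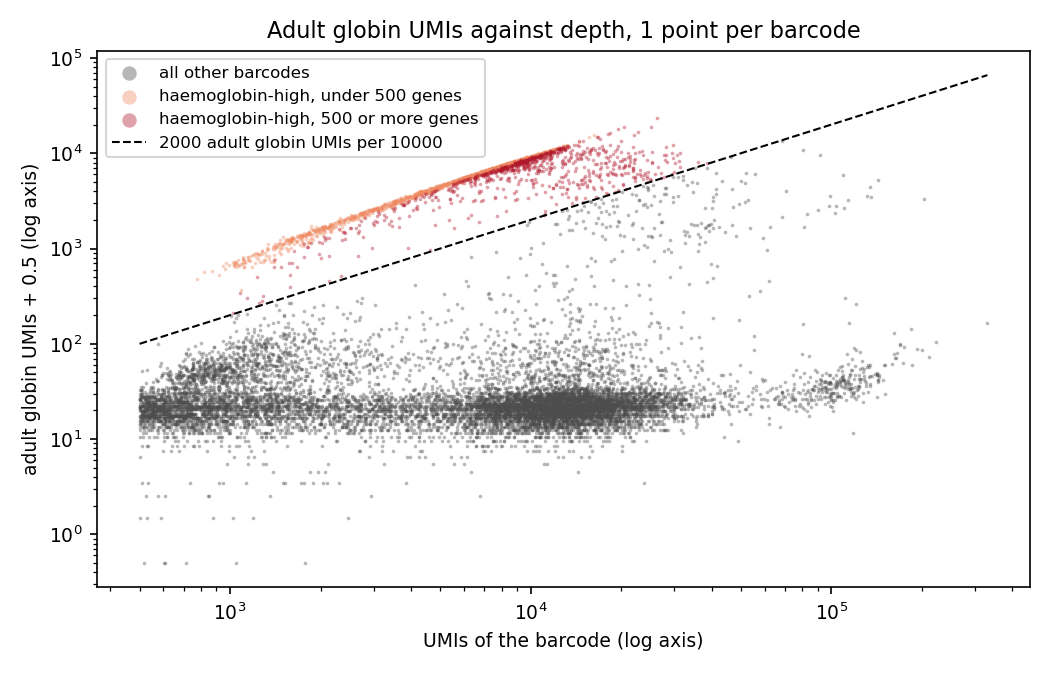
Adult globin UMIs plus 0.5 against all UMIs of each barcode, both on log axes, 1 point per barcode; the dashed line is the limit of 2000 per 10000. The other barcodes (grey) form a band with a median of 22 UMIs, between 20 and 26 up to 50000 UMIs and 37 above, and the haemoglobin-high barcodes lie above the line.

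The amount was alike in cell classes that do not make haemoglobin. Median adult globin UMIs per other barcode were 19 in mast cell-like, 20 in myelinating Schwann-like, 21 in macrophage-like, 22 in fibroblast-like, satellite glia-like and endothelial-like, 24 in oligodendrocyte lineage-like and 31 in neuron-like clusters. The neuron-like barcodes also had the highest median depth of all named clusters, 83261 UMIs. The 90 other barcodes in erythroid-like clusters stood apart at a median of 1331 adult globin UMIs and 658 per 10000. Their median depth was 28056 UMIs, against medians of 9832.5 UMIs and 7372 adult globin UMIs in the 596 haemoglobin-high barcodes of these clusters. Among them Hba-a2 made up 27.6% of adult alpha UMIs.

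**Figure D5:**
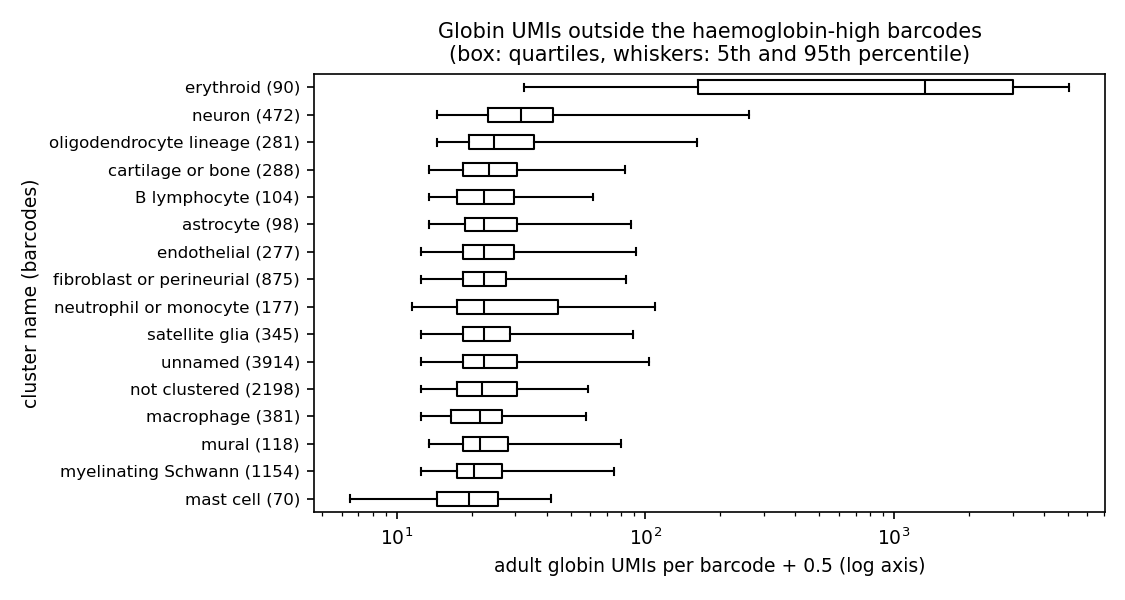
Adult globin UMIs per barcode plus 0.5 (log axis) in barcodes that were not haemoglobin-high, by the marker name of their cluster, with the number of barcodes; boxes are quartiles, the line the median and whiskers the 5th and 95th percentile. All clusters but the erythroid-like one have medians between 19 and 31 UMIs.

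The total was carried by few barcodes. Of the 10842 other barcodes, 502 (4.63%) held more than 100 adult globin UMIs, and they held 67.2% of the adult globin UMIs of this class. Summed, the other barcodes had 62.8 adult globin UMIs per 10000, and 51.6 without the erythroid-like clusters. In the 9477 barcodes with at most 50 adult globin UMIs, the ratio of alpha-type to beta-type was 0.277 (0.274 to 0.280), below that of both haemoglobin-high classes. Hbb-bt made up 14.1% (14.0 to 14.3) and Hba-a2 34.9% (34.5 to 35.4) there. All 3 values lay outside the counting intervals of both haemoglobin-high classes, with the Hbb-bt share nearest to that of barcodes with fewer than 500 genes.

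The genes around the switch were set side by side in haemoglobin-high barcodes with 500 or more genes and with fewer. Levels are counts per 1000000 non-globin UMIs (CPM), of which the classes had 3589414 and 885239. A gene with at least 20 UMIs was called higher at a ratio of at least 2 with an interval above 1, and lower at a ratio of at most 0.5 with an interval below 1. Of 11748 genes, 3638 (31.0%) were higher with 500 or more genes and 538 (4.58%) lower, and the median log2 ratio was 0.63. The list counts below are read against these shares. In the 596 barcodes of erythroid-like clusters alone, 2091 of 9445 genes (22.1%) were higher and 940 (9.95%) lower. Those clusters were named from Klf1, Gata1, Alas2 and other genes of the lists, so their values there are partly set by the naming. The counts depended on the comparison's settings: they were 741 higher and 470 lower with the classes split at 300 genes, and 259 higher and 196 lower of fewer genes counted without the barcodes that held other-cell markers. Scaled by all UMIs instead, every log2 ratio was 1.98 higher, 11049 genes were higher and 1 lower. A gene given as lower below is therefore lower relative to the other non-globin RNA, and for the genes named its ratio per UMI is given where it turns above 1.

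RNA of other cell types was present in both classes. Summed neuron markers stood at 11.0 UMIs per 10000 non-globin UMIs with 500 or more genes and 37.6 with fewer, against 49.2 in the other barcodes. Myelinating Schwann markers stood at 63.9, 58.2 and 85.6, and fibroblast markers at 62.1, 18.7 and 100.2. None of the 10 neuron, 7 myelinating Schwann or 8 fibroblast markers was at 0 in either class. The part of this RNA in the gene comparison was not tested.

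Activators of the adult globin genes were higher with 500 or more genes: 9 of 10 passed and none was lower, with a median log2 ratio of 2.49. Klf1, which binds the CACCC box of the adult beta promoter, had 169 CPM against 6.78, a ratio of 24.9 (11.4 to 68.1). Tal1, a partner of GATA1 at globin enhancers, was 10.7 times higher, Klf3 7.66 times and Gata1 7.05 times. In the class with fewer genes these rested on 6, 7, 31 and 7 UMIs. With the erythroid-like clusters alone 9 of 10 were again higher. Ldb1, the looping cofactor of the locus control region, had a ratio of 1.38 (0.871 to 2.28).

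Repressors of embryonic globins were also higher there: 5 of the 8 counted of 9 passed and none was lower, and 5 of the 6 counted with the erythroid-like clusters alone. Their median log2 ratio was 1.64. Sox6, which silences Hbb-y in definitive red cells, had 519 CPM against 30.5, a ratio of 17.0 (11.7 to 25.9). Zbtb7a (LRF, a repressor of fetal globin in human cells) was 4.93 times higher, Mbd2 4.26 times and Nr2c2 3.02 times. Bcl11a, the best known repressor of the switch, had 22 UMIs against 1 and was not called. Myb had 13 UMIs and 0. The class in which Hbb-y had more UMIs per beta-type UMI was also the class with more Sox6 and Zbtb7a RNA per non-globin UMI. Of all genes counted, 31.0% were higher in that class, and a link between these RNAs and Hbb-y was not tested.

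Of 7 RNA regulators of the fetal programme, 4 were counted (median log2 ratio 1.14) and 3 were higher. Hmga2 had 31 UMIs against 0, or 2.55-fold with 3 counts in place of the 0 (exact lower limit 1.95). Igf2bp3 had a ratio of 2.47 and Igf2bp2 of 2.13. With the erythroid-like clusters alone none of the 2 counted was called. Lin28b, which sustains fetal-type red cell production, had 9 UMIs against 7, too few to be counted. That is 2.51 against 7.91 CPM, a ratio of 0.317 (0.105 to 1.00). Lin28a had none in either class.

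Of the other globins, theta globin Hbq1a was 4.51-fold lower with 500 or more genes (17.6 against 79.1 CPM) and Hbq1b was not called at a ratio of 1.06 (0.867 to 1.32). Hbq1a and Hbq1b are near copies of each other and their split is uncertain. Cygb, the cytoglobin of fibroblasts and other cells, was 3.07 times higher, and was not called in the erythroid-like clusters alone. Hbb-bh2 had no UMI in any barcode class, and Ngb, the neuronal globin, had none in haemoglobin-high barcodes.

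Genes that guard chain balance were mixed, with 3 of 8 counted higher and 1 lower and a median log2 ratio of 0.34. The list had 9 genes, but Ahsp had no entry in the matrix and could not be counted. Ppp1r15a, which restarts translation after stress, was 6.60 times higher and Eif2ak1, the haem-regulated kinase that slows globin translation when haem is short, 6.08 times higher. Ulk1, which drives clearance of free alpha chains by autophagy, was 2.31 times higher. Ube2o, the ubiquitin ligase that remodels the proteome of reticulocytes, was 2.73-fold lower, at 367 against 1001 CPM, but 1.44 times higher per UMI. It was not called with the erythroid-like clusters alone, at a 1.75-fold lower level.

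Of 16 haem synthesis and iron genes counted, 11 were higher and 3 lower, and 10 and 2 with the erythroid-like clusters alone. The median log2 ratio was 2.05. Tfrc, the transferrin receptor, was 16.7 times higher, Cpox 10.6 times and Steap3 10.1 times (2.71 to 84.9). Steap3 rested on 2 UMIs in the class with fewer genes. Alas2, the first and rate-limiting enzyme of red cell haem synthesis, was 5.39-fold lower, at 3212 against 17311 CPM. The ferritin light chain Ftl1 was 4.10-fold lower and Fech, which inserts the iron to make haem, 2.63-fold lower but 1.5 times higher per UMI. With the erythroid-like clusters alone Fech was not called, at 1.66-fold lower.

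Red cell membrane genes were higher in 10 of 14 and lower in 1, with a median log2 ratio of 1.70. Ermap was 54.7 times higher, Rhag 19.6 times, Rhd 8.15 times and Ank1 7.07 times. Ermap and Rhag rested on 6 and 8 UMIs in the class with fewer genes. Epb41, protein 4.1 of the membrane skeleton, was 3.25-fold lower but 1.21 times higher per UMI. With the erythroid-like clusters alone 13 were higher and 1 lower.

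Genes of late red cells were the only list with more members lower than higher, 7 against 5 of 16, with a median log2 ratio of -0.62. Isg20, among those lower, was 1.21 times higher per UMI. Mkrn1 was 4.80-fold lower with 500 or more genes, Bpgm, which makes 2,3-bisphosphoglycerate, 4.63-fold, Bnip3l, which clears mitochondria from reticulocytes, 4.34-fold and Ube2l6 4.21-fold. Car1 was 15.0 times higher, Hemgn 12.5 times, Xpo7, an exportin of maturing red cells, 6.76 times and Car2 2.95 times. Car1 rested on 7 UMIs in the class with fewer genes. The counts with the erythroid-like clusters alone were 7 lower and 6 higher. Cell cycle genes were higher in 11 of 12, with a median log2 ratio of 2.79. Among them were Rrm2 (19.6 times), Tpx2 (17.2 times), Mki67 (9.69 times) and Cenpf (7.74 times). Tpx2 rested on 8 UMIs in the class with fewer genes.

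Some genes followed the globins over the 10 bins of haemoglobin-high barcodes with 500 or more genes. Among 3028 genes with at least 200 UMIs there, the CPM of Fech correlated most with the adult globin level (Pearson r = 0.988 over 10 bins), then Gpx1 (0.981), Epb41 (0.973), 1810058I24Rik (0.972) and Psme3 (0.967). Fech ran from 312 to 3088 CPM over the bins. For the embryonic share the highest were Kmt5a (0.983), Map3k1 (0.973), Mt1 (0.971), Senp2 (0.964) and Lmna (0.961). The latter rest on 33 embryonic UMIs, and without the 3 barcodes with 3 or more of them the values were 0.920, 0.800, 0.919, 0.937 and 0.951. The bins share 1 library and differ in genes detected, and these values are descriptions.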

How the data were processed

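Single-cell RNA was measured in 1 trigeminal ganglion library. Per the file headers, the authors deposited raw UMI counts as written by Cell Ranger 7.0.1. Version 3.1.0 and the mm10 build appear in the submitters' processing notes. No source used here says if intronic reads count. The members and gene lists were chosen with earlier results of these data known.

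Classes followed the limits of 2000 adult globin UMIs per 10000 and 500 genes. UMIs were summed per class. Shares have Clopper-Pearson, levels Poisson and ratios conditional binomial intervals, all exact at 95%. The rule for named genes took all members, up to 4 called genes with the highest and 4 with the lowest ratio of each list, and the 5 genes most like each globin measure over bins. Isg20, Bcl11a, Myb, Ldb1, Lin28a, Lin28b, Hbb-bh2, Hbq1b and Ngb were named after their values were seen. Some genes that the rule took are not reported here. The ratio of a gene with 0 UMIs on a side was computed with 3 counts in place of the 0.

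The 9427 barcodes that passed the filters were clustered with scanpy 1.11.5 (2000 variable genes, 30 components, 20 neighbours) and leidenalg 0.10.2 at resolution 1, which gave 34 clusters. A name needed a mean log2 ratio of its markers above 1 and 5 raised markers. This naming rule was settled after the clusters had been seen, and 14 clusters stayed unnamed. Thinned shares are expected values over all draws. On counts simulated for 11748 genes of the comparison of the haemoglobin-high classes, calls were made for 84 of 100 genes with a 3-fold difference, 86 of 100 with a 6-fold difference and 110 of 11313 with none. The simulation drew Poisson counts of the class sums, without free RNA, doublets or variance between barcodes beyond counting error. Intervals came from scipy 1.17.1, and tables from pandas 2.3.3 under Python 3.11.15.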

Additional observations from a re-analysis of the deposited data

How the results depend on the processing

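No paired analysis was possible because the ganglion has 1 library and the molar libraries, whose groups share replicate numbers, were not analysed here. The main limits are 69 embryonic UMIs in all, 1 library of an unstated number of animals, shared sequence of the adult copies and undetected doublets. Of 142 values recomputed under alternatives, 82 stayed within the interval, or within 1.5 times the count, of the main value, and 60 did not. Many of the latter are shares of very large UMI sums, whose intervals are narrow. Why values moved was not tested. Some alternatives also kept fewer barcodes or genes.

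Values are given for 500 or more genes unless stated. Splitting the classes at 300 genes gave 1952 and 271 barcodes, 3.47 embryonic beta-type UMIs per 1000000, alpha to beta ratios of 0.322 and 0.345, Hbb-bt shares of 16.0% and 9.53% and Hba-a2 shares of 32.9% and 32.9% above and below the split, and 0 embryonic alpha-type UMIs below it. Splitting at 1000 genes gave 353 barcodes above the split, 13.2 embryonic beta-type UMIs per 1000000, ratios of 0.302 and 0.328, Hbb-bt shares of 16.7% and 15.3% and an Hba-a2 share of 31.4% above it. A limit of 1000 adult globin UMIs per 10000 gave an Hbb-bt share of 17.1%, and a limit of 5000 a ratio of 0.316, an Hbb-bt share of 17.6% and an Hba-a2 share of 32.6%. With each barcode weighted equally, medians were 0.305 and 0.337 for the ratio, 16.8% and 13.4% for Hbb-bt and 28.6% and 37.5% for Hba-a2, in the classes with more and fewer genes.

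Leaving out haemoglobin-high barcodes with 20 or more other-cell marker UMIs per 10000 non-globin UMIs removed 669 of 786 and 1413 of 1437. The median of non-globin UMIs was 1922 and 572 in these classes. Deeper barcodes were removed too: 98 of the 114 with 3000 to under 5000 genes, a range with a median of 12471. Fewer were removed from 2000 to under 3000 genes, 33 of 73, so the barcodes left also differ in genes detected. The 117 and 24 left had 28.3 and 0 embryonic beta-type and 16.1 and 0 embryonic alpha-type UMIs per 1000000, ratios of 0.293 and 0.334, Hbb-bt shares of 18.0% and 16.5% and, in the 117, an Hba-a2 share of 30.9%. In erythroid-like clusters alone, an alternative added after the data were seen, the ratio was 0.310 and the Hbb-bt share 17.9%. Without the barcodes that held 3 or more embryonic UMIs, also added after the data were seen, embryonic beta-type globins stood at 4.49 per 1000000. Without thinning, Hbb-y was seen in 2.04% of barcodes.

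For the other barcodes the median was 21 UMIs under an upper limit of 500 per 10000 and 20 in barcodes under 500 genes. Adult globin UMIs per 10000 were 39.5 and 148 with limits of 1000 and 5000, 29.8 under the upper limit of 500, 62.2 at most 20% mitochondrial, 59.6 from 1000 UMIs, 61.3 and 322 with 500 or more and fewer genes, 51.6 outside erythroid-like clusters (also added after the data were seen) and 29.4 as the median of barcodes. Genes higher and lower numbered 2285 and 205 with at least 100 UMIs, 259 and 196 without barcodes with other-cell markers, 2091 and 940 in erythroid-like clusters alone, 11049 and 1 scaled by all UMIs, and 741 higher at a split of 300 genes, where the lower count was 470.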
